A study of Mus musculus with 6 samples.

Results

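Leukaemia stem cells (LSC) carrying BCR-ABL were compared with stem and progenitor cells (HSC) that did not express it, with 2 arrays in each group. These are 4 of the 6 arrays of the series, chosen by their titles. The comparison covered the 21601 of 35557 probe sets that held a value and exactly 1 gene symbol in the platform annotation, which stand for 19934 genes. LSC carried a retrovirus with BCR-ABL and GFP in cells of wild-type (WT) C57BL/6 (B6) donors. HSC were labelled as WT cells of the same strain without BCR-ABL. Their descriptions name a vector, and the protocol names a retrovirus with GFP alone. In both groups the donors had been treated with 5-fluorouracil, the marrow was transduced and transplanted into B6 recipients, and Lin-c-Kit+Sca-1+ cells were sorted by flow cytometry 14 days later, with GFP+ in the stated LSC gate. The labelled age was 8 weeks. BCR-ABL was therefore expressed from a retrovirus in transplanted marrow, and the sort gate holds progenitors as well as stem cells. The other 2 arrays were of BCR-ABL cells from Alox5-/- donors of the same labelled strain. They entered the estimate of spread and the mean scores by which probe sets were chosen or grouped. The labels number the arrays as biological replicates and do not say how many animals gave each, so p-values measure the spread between these samples.

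BCR-ABL is a fusion of the BCR protein with the ABL tyrosine kinase and is the cause of chronic myeloid leukaemia (CML). Its kinase is constantly active and signals through adaptor proteins to the RAS-MAPK, PI3K-AKT and JAK-STAT pathways. STAT5 is a central relay in these cells, and its targets include feedback inhibitors such as Socs2 and survival genes such as Bcl2l1. Stem cells of CML are known for persisting when the kinase is inhibited, which is why their genes have been studied apart from those of the bulk leukaemia. The contrast asks how scores across genes differ between such cells with and without the fusion.

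The deposited number for each probe set is a score whose unit, log base and direction are not stated. It is not settled that the score measures expression level at all, and each difference given here is a difference in that score only. Array medians over the tested probe sets ran from 14.91 to 16.98. Between 35.6% and 61.9% of scores on an array exceeded 16, which is the upper limit of log2 values from a 16-bit scanner. Each array was therefore centred on its own median. All values below are scores relative to that median, or percentiles within an array, and differences are LSC minus HSC in score units and not fold changes.

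Known gene groups were not ordered on the score from low to high transcript abundance. Probe sets of widely expressed genes, such as cytoskeletal and translation genes, had a median at percentile 9.58 and 12.6 on the HSC arrays and 8.73 and 9.79 on the LSC arrays, which is near the bottom of the range. Actb, the cytoplasmic actin, lay between percentiles 0.4 and 2.8 over the 6 arrays, and Eef2, an elongation factor, between 0.9 and 1.4. Probe sets of cytosolic ribosomal proteins, of which 172 were tested, had a median percentile of 6.14 over the 6 arrays. Olfactory and vomeronasal receptor genes, which serve the sense of smell and are not known for expression in blood stem cells, had a median of 50.6 over 1209 probe sets. Genes restricted to other organs, such as liver, pancreas or heart, had a median of 60.6 over 26 probe sets. With 1 probe set per gene, the one of highest mean score, ribosomal protein genes instead had medians between percentiles 66.7 and 84.1 on the HSC and LSC arrays. The position of that group therefore depends on which of its probe sets is read. Single genes also departed from their group. Ppia, a widely expressed isomerase, lay between percentiles 89.3 and 97.1, and Myh6, a heart myosin, between 6.5 and 36.6. A higher score is accordingly not described as higher expression anywhere below, and no score marks a gene as absent.

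**Figure D1:**
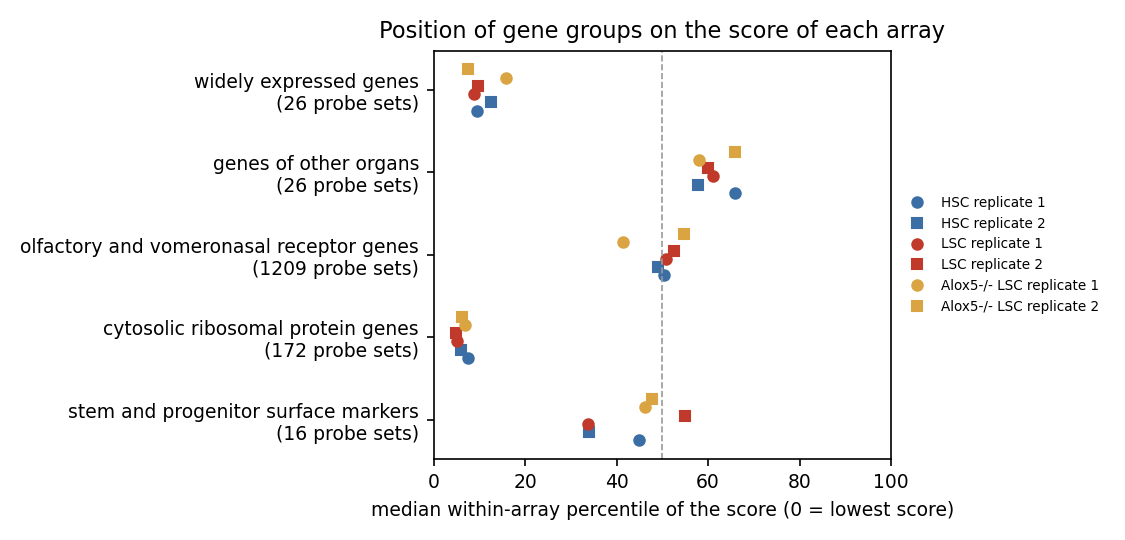
Median within-array percentile of the score (horizontal axis, 0 is the lowest score) for 5 gene groups (rows), with 1 symbol per array and the 50th percentile as a dashed line. Widely expressed and ribosomal protein genes sit near the low end on all 6 arrays, while olfactory and vomeronasal receptor genes sit between 41.4 and 54.7.

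The same reading was made for markers of the sorted cells and of other blood cells. Kit, the receptor used for sorting, lay at percentiles 12.5 and 31.3 in HSC and 7.2 and 30.9 in LSC, and Ptprc, the pan-leukocyte marker CD45, between 2.6 and 9.7 on all 6 arrays. No probe set carried the symbol Ly6a, the gene of Sca-1, so that marker of the gate was not read. Mpo, a granule enzyme of granulocyte precursors, lay between 1.0 and 2.6 and S100a8, a neutrophil protein, between 1.6 and 2.8. Cd3e of T cells lay between 54.5 and 73.9 and Ms4a2 of mast cells between 72.9 and 93.1. Other markers of the same cells lay elsewhere. Prtn3 and Ltf of granulocytes lay between 47.8 and 77.8 and between 42.5 and 81.6. Cd3d of T cells lay between 12.6 and 34.0, and Fcer1a of mast cells between 39.2 and 62.6. Markers of a single cell type thus did not share a position. Because the direction of the score is unknown, these positions neither bear out nor contradict the labelled cell type.

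No probe set passed the test in LSC against HSC. By limma, 0 of 21601 probe sets (0.0%) had a Benjamini-Hochberg adjusted p under 0.05, 0 had one under 0.1, and the smallest was 0.575. At an unadjusted limma p under 0.05 there were 1109 probe sets, 5.13% of those tested, where a uniform distribution of p gives 1080. Of these, 474 (2.19% of all tested) had higher scores in LSC and 635 (2.94%) lower scores. The lower share was 57.3% after centring and 79.2% on the uncentred scores, where 20.8% were higher and the median difference over all probe sets was -0.47 in place of 0.07. The higher count was then 215 in place of 474. Without LSC replicate 1 the split turned, with 53.4% higher in LSC, and without HSC replicate 1 the lower count was 1008 in place of 635. Scores of the groups did not overlap for 7524 probe sets (34.8%), 4002 higher and 3522 lower in LSC. That share was 64.3% to 71.2% with 1 LSC or HSC array left out, since 1 array against 2 separates more readily. With 2 arrays against 2, an exact permutation test of a single probe set cannot give a two-sided p below 0.333. Arrays that do not differ by group would likewise leave a share near 0.333 without overlap, and 34.8% is close to it. Lack of overlap in a single gene below is therefore a description only.

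Differences between groups were of the size of differences between arrays of the same group. Over all probe sets, the SD of replicate 1 minus replicate 2 was 2.67 in HSC and 2.40 in LSC. These values alone give an SD of 1.80 for a difference between means of 2 arrays, and the SD of LSC minus HSC was 1.86, a ratio of 1.03. The ratio was between 1.02 and 1.06 in each of 4 near-equal groups of probe sets by mean score. Pearson correlations over probe sets, which are not independent replicates, were 0.731 between the HSC arrays, 0.773 between the LSC arrays and 0.712 to 0.776 between an HSC and an LSC array. HSC replicate 2 had the lowest correlations, from 0.699 to 0.731 with the other 5 arrays. The 95% interval of a difference reached a median of 3.16 units to either side, and 2.0% of probe sets (432) differed by more than 5 units.

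**Figure D2:**
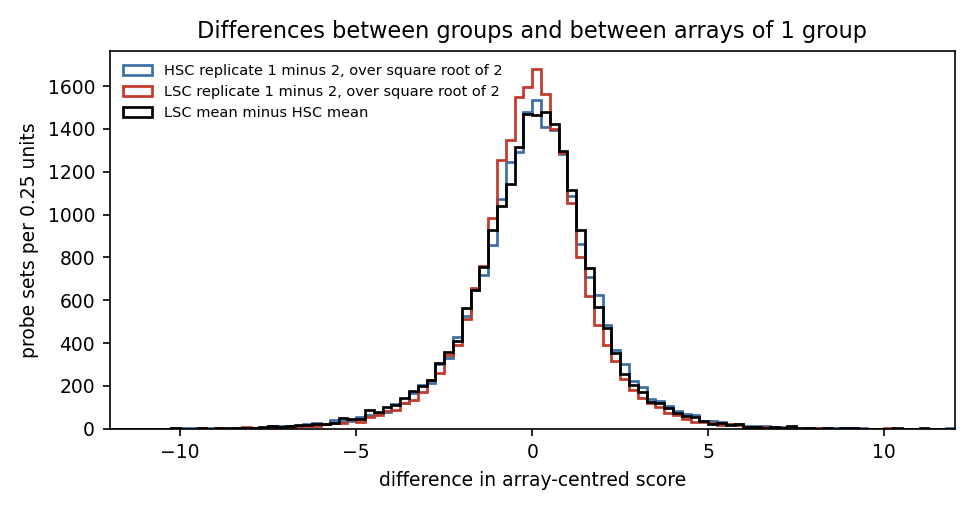
Number of probe sets (vertical axis) by difference in array-centred score (horizontal axis) for the LSC mean minus the HSC mean (black) and for replicate 1 minus replicate 2 within HSC (blue) and LSC (red), both divided by the square root of 2 so that all 3 curves are on the scale of a difference of means. The curves lie nearly on each other, with SDs of 2.67 and 2.40 between replicates before that division and 1.86 between the groups.

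The 12 probe sets with the smallest p in each direction, unnamed gene models left out, are described as values and not as changes. Among those with higher scores in LSC, Vpreb3, a protein of B cell precursors, stood at -7.36 and -7.40 on the HSC arrays and 1.31 and 1.81 on the LSC arrays. The groups did not overlap, and the difference was 8.94 ± 1.21 (SE; 95% interval 6.08 to 11.79; limma adjusted p = 0.575). Kynu, a kynureninase of tryptophan breakdown, stood at -1.14 and -1.64 in HSC and 9.81 and 6.81 in LSC, a difference of 9.70 ± 1.46. Rhag, the Rh-associated glycoprotein of red cell membranes, stood at -4.48 and -3.76 in HSC and 9.71 and 5.20 in LSC. Its difference of 11.57 ± 2.35 was the largest of these 12 and also had a wide interval, from 6.04 to 17.11. Akr1c6, a hydroxysteroid dehydrogenase, stood at -0.71 and -2.73 in HSC and 7.46 and 6.62 in LSC. Bbs7, a component of the ciliary BBSome, stood at -0.79 and -1.21 in HSC and 6.79 and 6.36 in LSC. Vps72, a chromatin remodelling protein, stood at -7.30 and -8.50 in HSC and 0.53 and 1.37 in LSC. The remaining 6 were Rpl21 (7.49), Lilr4b (6.41), Hp (7.28), Myo9a (7.45), Khdrbs1 (5.39) and Lrmp (6.82). For Rpl21, Myo9a and Khdrbs1 other probe sets of the same symbol did not share this: those of Rpl21 differed by -2.39 to 1.45 and that of Khdrbs1 by -1.65. Those of Myo9a ran from -5.65 to 3.45.

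Among probe sets with lower scores in LSC, Rnf5, a membrane-bound ubiquitin ligase, had the smallest p of all. It stood at 1.52 and 1.15 in HSC and -7.31 and -6.86 in LSC, a difference of -8.42 ± 1.00 (SE; 95% interval -10.76 to -6.08; limma adjusted p = 0.575). Cyb5b, a mitochondrial cytochrome b5, stood at 4.22 and 7.90 in HSC and -5.79 and -5.58 in LSC, a difference of -11.75 ± 1.43. Both groups were separated by more than their own spread, but neither gene passed correction over all probe sets. Rtn4ip1, a mitochondrial oxidoreductase, stood at 3.76 and 4.16 in HSC and -3.58 and -3.36 in LSC. Irf2, a transcription factor of the interferon regulatory family, stood at 3.15 and 2.72 in HSC and -3.87 and -4.26 in LSC. Tifa, an adaptor of NF-kappaB signalling, stood at 5.70 and 7.58 in HSC and -0.75 and -2.58 in LSC. Mdh1, the cytosolic malate dehydrogenase, differed by -7.87, Nae1, a subunit of the enzyme that activates NEDD8, by -8.42, and Elf2, an ETS family factor, by -7.84. The other 4 were Gpatch8 (-8.17), Ddias (-7.35), Zswim7 (-6.62) and Pus7l (-6.63). Of the 5 probe sets of Gpatch8 the other 4 differed by 0.54 to 2.49, the opposite sign.

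**Figure D3:**
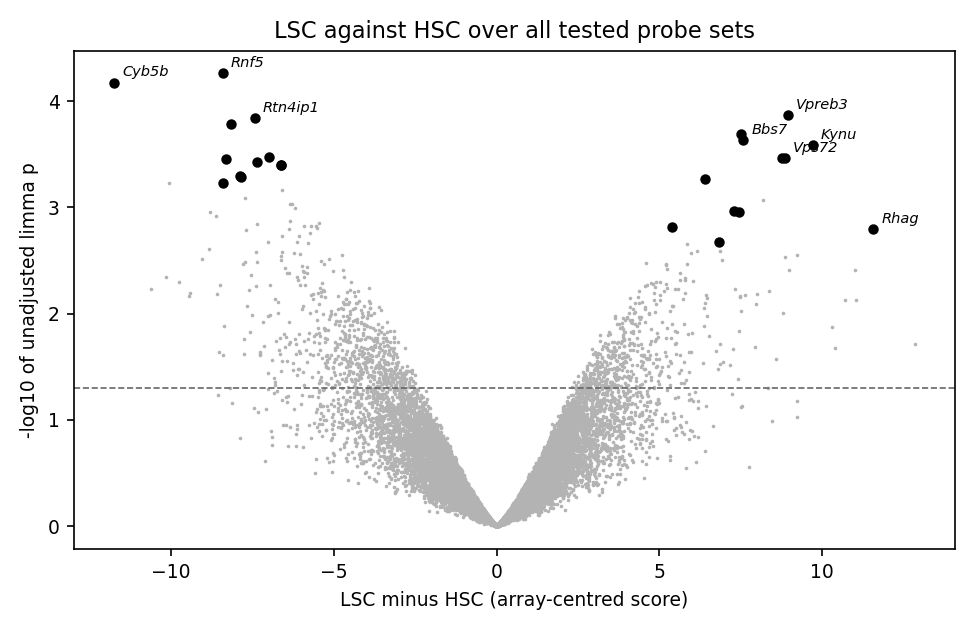
LSC minus HSC in array-centred score (horizontal axis) against -log10 of the unadjusted limma p (vertical axis) for all 21601 probe sets. The 12 probe sets of smallest p in each direction, unnamed gene models left out, are in black, with the unadjusted threshold as a dashed line. No point passed after adjustment, and the smallest adjusted p was 0.575.

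**Figure D4:**
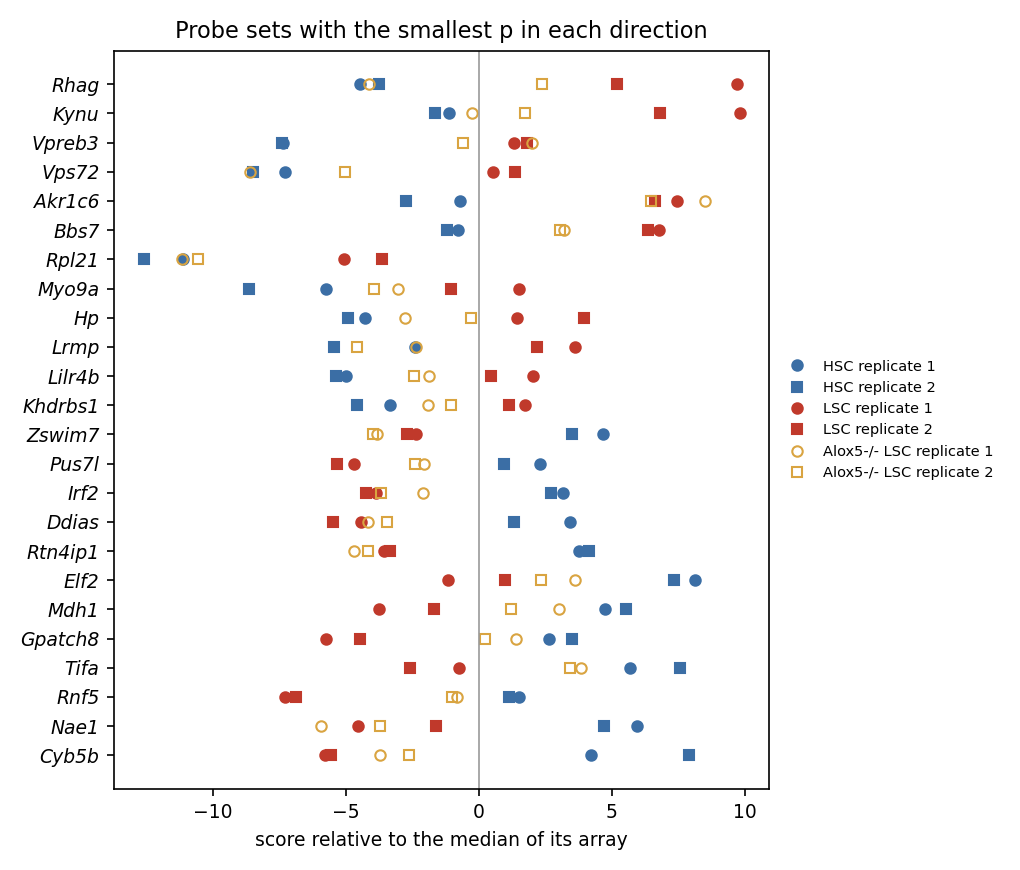
Score relative to the array median (horizontal axis) of the 12 probe sets with the smallest p in each direction, unnamed gene models left out (rows). Filled symbols are HSC (blue) and LSC (red), and open symbols are the Alox5-/- LSC arrays. The HSC and LSC arrays do not overlap in any row by this choice of probe sets, and the Alox5-/- LSC arrays of Rnf5 (-0.84 and -1.0) lie between the groups.

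The Alox5-/- LSC arrays also carry BCR-ABL but did not choose these probe sets except through the spread. For Vps72 they stood at -8.62 and -5.05, and for Rpl21 at -11.16 and -10.56, near the HSC values. For Akr1c6 they stood at 8.52 and 6.49, for Rtn4ip1 at -4.71 and -4.16 and for Vpreb3 at 1.99 and -0.60, near the LSC values. For Kynu they stood at -0.24 and 1.72, nearer to HSC. The position of these arrays thus varied from gene to gene, and no test of it was made, since they share the spread of the fit.

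In rank terms, the mean percentile on the LSC arrays minus that on the HSC arrays was -89.0 for Cyb5b, -86.6 for Otulinl and -80.7 for Slc44a1, a choline transporter. It was 86.3 for Rhag, 84.7 for Txlng and 79.0 for the microRNA gene Mir680-2. These 3 probe sets in each direction were chosen by this measure, and none passed the limma test. Txlng stood at 2.36 and 10.54 in LSC against -6.08 and -6.70 in HSC, and its other probe set differed by -1.33. The other probe set of Slc44a1 differed by 1.16.

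A gene with 2 probe sets gives a second reading of the same comparison on the same arrays. Over the 754 genes with exactly 2 probe sets, LSC minus HSC of the first and second correlated at 0.115 (Pearson; Spearman 0.107), and 52.8% had the same sign. The HSC scores of the pairs correlated at 0.387. These points share arrays and centring, and some probe sets may lie in processed copies of a gene. In 10 genes both probe sets had p under 0.05, and in 88 only 1 had. The 10 were found after their values were seen. Both were higher in LSC for 2 genes, both lower for 5, and the signs were opposite for 3. Socs2, the STAT5-induced feedback inhibitor, was higher on both: 0.92 and 4.56 in HSC against 12.53 and 9.69 in LSC on the first, and -4.17 and -4.34 against -0.79 and -0.31 on the second. The differences were 8.37 ± 2.18 (SE) and 3.70 ± 1.23, and each had a limma adjusted p of 0.953. The Alox5-/- LSC arrays stood at 13.07 and 7.8 on the first and 2.91 and 0.3 on the second. Hacd1, a dehydratase of very long chain fatty acid synthesis, was also higher on both, by 11.01 and 5.91. Lower on both were the proteasome subunits Psmb3 (-4.03 and -3.97) and Psmc1 (-7.02 and -3.36), the ubiquitin protease Zranb1 (-6.59 and -3.97), Fam222b (-8.42 and -6.72) and the long noncoding RNA Morrbid (-3.51 and -4.37). Disp1, Mrto4 and Nfu1 had opposite signs, with 4.83 and -4.28 for Disp1.

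Gene lists were read with 1 probe set per gene, the one of highest mean score over all 6 arrays. Over all 19934 genes so chosen, 1009 (5.06%) had an unadjusted p under 0.05, 427 higher (2.14%) and 582 lower (2.92%), and the median difference was 0.07. The 36 lists held 716 genes, of which 0 passed after adjustment by limma and 58 (8.10%) had p under 0.05, 27 higher and 31 lower. The lists were chosen with earlier results of these data known, so this share is a description. List medians depended on scaling and arrays: without centring 10 of 37, a count over the 36 lists and the microRNA hairpins, took the other sign. Leaving out LSC replicate 1, LSC replicate 2, HSC replicate 1 or HSC replicate 2 gave the other sign to 10, 9, 9 and 14. Of the 108 named probe sets, 40 moved by over 1.5 times without 1 array.

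Genes of the construct and its adaptors came first. The probe set of Bcr stood at 3.12 and 3.96 in HSC and 5.84 and 3.59 in LSC, a difference of 1.17 (95% interval -1.94 to 4.28), and its other probe set differed by 0.96. Abl1, the kinase partner, stood at -1.11 and -2.83 in HSC and -1.14 and -1.18 in LSC, a difference of 0.82 (-1.88 to 3.51). The groups overlapped for both genes. Mouse probe sets need not read the retroviral fusion, so these values do not check the labels. Of 20 genes of the construct and its adaptors 0 had p under 0.05, and the smallest p belonged to the RAS exchange factor Sos1 (-3.12). The 6 measured Src family genes likewise had 0, with Yes1 of smallest p at 0.99 and Blk at 0.02 (-3.12 to 3.16).

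Signalling downstream of the kinase was read next. In the JAK-STAT list, 2 of 20 genes had p under 0.05, both higher: Socs2 and the cytokine oncostatin M (Osm, 3.09). The median of this list was -0.21, with 9 genes above 0 and 11 below. Stat5a stood at -0.43 and 0.48 in HSC and 1.86 and 2.56 in LSC, a difference of 2.18 (-0.50 to 4.86). Stat5b differed by -2.94 (-6.55 to 0.68), so the signs of these close relatives differed and both intervals held 0. In the RAS-MAPK list 1 of 18 genes had p under 0.05, the feedback inhibitor Spry2, at -3.12 and -4.62 in HSC and 1.02 and -0.85 in LSC. The PI3K-AKT-mTOR and FoxO list had 5 of 23. The kinases Akt1 (4.74) and Pik3cg (4.55) and the pseudokinase Trib1 (5.21) were higher, and the transcription factor Foxo1 (-4.52) and its target Txnip (-2.57) were lower. Foxo1 stood at 4.38 and 3.01 in HSC and 0.78 and -2.43 in LSC, without overlap.

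Developmental pathways were read beside the 5.06% of all genes with p under 0.05. Lists this short can hold 0 such genes at that share. The Wnt and beta-catenin list had 0 of 22, with Dvl3, a transducer of Wnt signals, of smallest p at 3.72. Ctnnb1, beta-catenin itself, stood at 3.32 and 2.28 in HSC and 1.25 and -0.72 in LSC, a difference of -2.54 (-5.68 to 0.61). The Hedgehog list had 0 of 11, with Sufu, an inhibitor of the pathway, at -1.53. The Notch and Musashi list had 0 of 19, with the coactivator Maml1 at 2.95.

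Arachidonate metabolism was read because Alox5 was the gene removed in the other arm of the study. Alox5 stood at -3.45 and 2.91 in HSC and -2.79 and -1.76 in LSC. The HSC arrays lay on either side of the LSC arrays, and the difference was -2.0 (-6.66 to 2.65). Of 25 leukotriene and eicosanoid genes 1 had p under 0.05, the prostacyclin receptor Ptgir (-3.41), at 0.34 and -0.69 in HSC and -4.12 and -3.05 in LSC. Among 10 genes followed by the same laboratory 0 had p under 0.05. Msr1, a scavenger receptor, differed by -1.99 (-6.62 to 2.64), Scd1, a fatty acid desaturase, by -0.28 (-4.75 to 4.19) and Hif1a, the hypoxia factor, by 0.41 (-2.31 to 3.13). Each of these intervals is wide enough to hold differences of several units in either direction.

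Stem cell surface markers had 3 of 16 genes with p under 0.05, all higher in LSC. Slamf1, the receptor CD150, stood at -0.78 and -1.24 in HSC and 5.49 and 4.2 in LSC, a difference of 5.85 ± 1.36 (SE; limma adjusted p = 0.953). Procr, the endothelial protein C receptor, stood at -0.20 and -0.82 in HSC and 3.81 and 3.63 in LSC, and Itga2b, the integrin CD41, at -3.78 and -3.14 against -0.69 and 2.13. The list median was -0.38, and it was 0.83 without LSC replicate 1 and -1.48 without LSC replicate 2. Leaving out HSC replicate 1 gave 0.44, and leaving out HSC replicate 2 gave 0.02. Cd34 stood at -0.46 and -0.52 in HSC and -3.75 and -3.02 in LSC, a difference of -2.89 (-6.24 to 0.46). Kit differed by -0.64 (-3.96 to 2.68).

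Stem cell transcription factors had 3 of 25 genes with p under 0.05 and a median of 0.74. Meis1, a homeobox partner of HOX proteins, stood at 3.84 and 3.37 in HSC and -1.05 and 0.30 in LSC, a difference of -3.98. Hoxa10 (3.6) and Lyl1 (3.47), a basic helix-loop-helix factor, were higher. Chromatin regulators had 2 of 26, the polycomb-associated Asxl1 (-3.62) and the remodelling ATPase Smarca4 (3.53).

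Lymphoid genes were read as markers of other cells. In the B cell list 5 of 19 genes had p under 0.05, 4 higher and 1 lower, with a median of 0.90 and quartiles of -1.95 and 3.09. Cd79a, a signalling chain of the B cell receptor, stood at 7.68 and 11.19 in HSC and 0.87 and -2.12 in LSC, a difference of -10.06 ± 1.73. Dntt, the terminal transferase of lymphoid progenitors, stood at -3.01 and -8.24 in HSC and 0.02 and 3.6 in LSC. Vpreb2 (4.23), a surrogate light chain, and Rag2 (4.98), a recombinase subunit, were higher with Vpreb3. Members of this list thus lay on both sides. The T and NK cell list had 1 of 22, Cd8b1 (3.4).

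Myeloid lists were likewise mixed. In the monocyte, macrophage and dendritic cell list 5 of 24 genes had p under 0.05. The mannose receptor Mrc1 (7.98) and the dendritic cell factor Batf3 (3.02) were higher, and the complement chain C1qb (-6.38), the fractalkine receptor Cx3cr1 (-6.05) and the factor Irf8 (-4.33) were lower. Cx3cr1 stood at 3.16 and 4.17 in HSC and -2.59 and -2.17 in LSC. Granulocyte genes had 2 of 22, the receptor Csf3r (-3.57) and the ficolin Fcnb (-2.64). Their median was -0.06, with 11 above 0 and 11 below. Mast cell, basophil and eosinophil genes had 2 of 15, the proteases Cpa3 (-5.22) and Mcpt8 (-6.07). The median of that list was 0.01, with 8 above 0 and 7 below. Mcpt8 stood at 5.64 and -1.41 in HSC, a gap wider than the difference between the group means.

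Megakaryocyte and platelet genes had 2 of 13, Itga2b and the platelet chemokine Pf4 (3.66), both higher. The list median was -0.25, with 6 members above 0 and 7 below. The erythroid list had 1 of 18, Rhag, with a list median of -0.16. Stromal and endothelial genes, which mark cells outside the gate, had 0 of 18 and a median of 0.98. In this list 14 members lay above 0 and 4 below, where 48.0% of all genes lay below 0. The endothelial receptor Kdr had the smallest p of that list at -2.65. Whatever the score measures, these are bulk samples, in which the number of cells of a type and the RNA per cell cannot be told apart.

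Cytokines known from CML cells had 1 of 17, Osm, and cytokine receptors had 3 of 18, all lower: Tgfbr2 (-4.55), Il1rap (-3.68) and Csf3r. Tgfbr2, the type II receptor of TGF-beta, stood at 2.67 and 3.94 in HSC and -0.44 and -2.04 in LSC. Il1rap, the accessory chain of the interleukin 1 receptor, stood at 4.60 and 1.14 in HSC and 0.12 and -1.74 in LSC. Adhesion and homing genes had 1 of 21, the integrin chain Itgb7 (-2.92). Drug transporters had 0 of 10, with Slc22a4 of smallest p at 2.45.

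Proliferation lists had lower medians than all genes, with 18 of 27 S phase genes and 17 of 26 G2 and M phase genes below 0, against 48.0% of all genes. In the S phase list 3 genes had p under 0.05, all lower: the primase Prim1 (-5.72), the clamp loader subunit Rfc3 (-4.43) and the helicase subunit Mcm2 (-3.46). Rfc3 was -2.39 without HSC replicate 2. Prim1 stood at -1.63 and -0.14 in HSC and -7.85 and -5.35 in LSC. In the G2 and M phase list 3 had p under 0.05, also all lower: Cdca8 (-4.80), Ccna2 (-3.82) and the mitotic kinase Aurka (-3.19). The medians were -0.86 and -0.53, and that of the second list was 0.17 without LSC replicate 1. Cell cycle inhibitors and quiescence genes had 1 of 18, Txnip, and a median of 0.09 that was -0.45 without centring. The median over all probe sets moved likewise, from 0.07 to -0.47.

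DNA repair genes had 1 of 26, the endonuclease subunit Ercc1 (-2.80), with a median of -0.71. BCL2 family genes had 1 of 16, Bnip3 (-6.37), a mitochondrial protein of hypoxia and mitophagy, at 6.41 and 1.43 in HSC and -0.15 and -4.74 in LSC. Its other probe set differed by -3.54. Heat shock and unfolded protein response genes had 1 of 25, the disulfide isomerase Pdia4 (5.20). Interferon response genes had 5 of 22, in both directions. Rtp4 (6.85), Samd9l (6.39) and the RNA sensor Ddx58 (4.10) were higher, and Mx1 (-6.83) and Stat2 (-3.78) were lower. Mx1, a dynamin-like antiviral protein, stood at 12.39 and 3.03 in HSC and 1.31 and 0.44 in LSC, and its difference was -2.16 without HSC replicate 1.

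Metabolic lists followed. Glycolysis and hypoxia genes had 2 of 24, both lower, with a median of -0.74 that was 0.0 without LSC replicate 2. The glucose transporter Slc2a1 stood at 1.90 and 0.51 in HSC and -5.38 and -1.70 in LSC, and the kinase Pgk1 at 2.52 and 2.21 against -0.20 and -0.63. Oxidative phosphorylation genes had 1 of 28, the succinate dehydrogenase subunit Sdha (-3.19). Sterol and fatty acid synthesis genes had 1 of 23, the mevalonate decarboxylase Mvd (4.61), which was 2.37 without HSC replicate 2. Cytosolic ribosomal protein genes had 3 of 53: Rps25 (-7.26), Rpl22 (-3.44) and Rps13 (10.40). Rps13 was 4.65 without LSC replicate 2 and 16.15 without LSC replicate 1, and Rps25 was -3.69 without LSC replicate 1. The median of these 53 genes was -0.99 with 37 below 0, against 48.0% of all genes, but it was 0.23 without HSC replicate 1. Many of these genes have several probe sets, and those of Rps13 other than the one read differed by -0.83 and -0.12. The other probe sets of Rps25 differed by -6.36, -2.85, -1.45, 0.31 and 0.57.

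**Figure D5:**
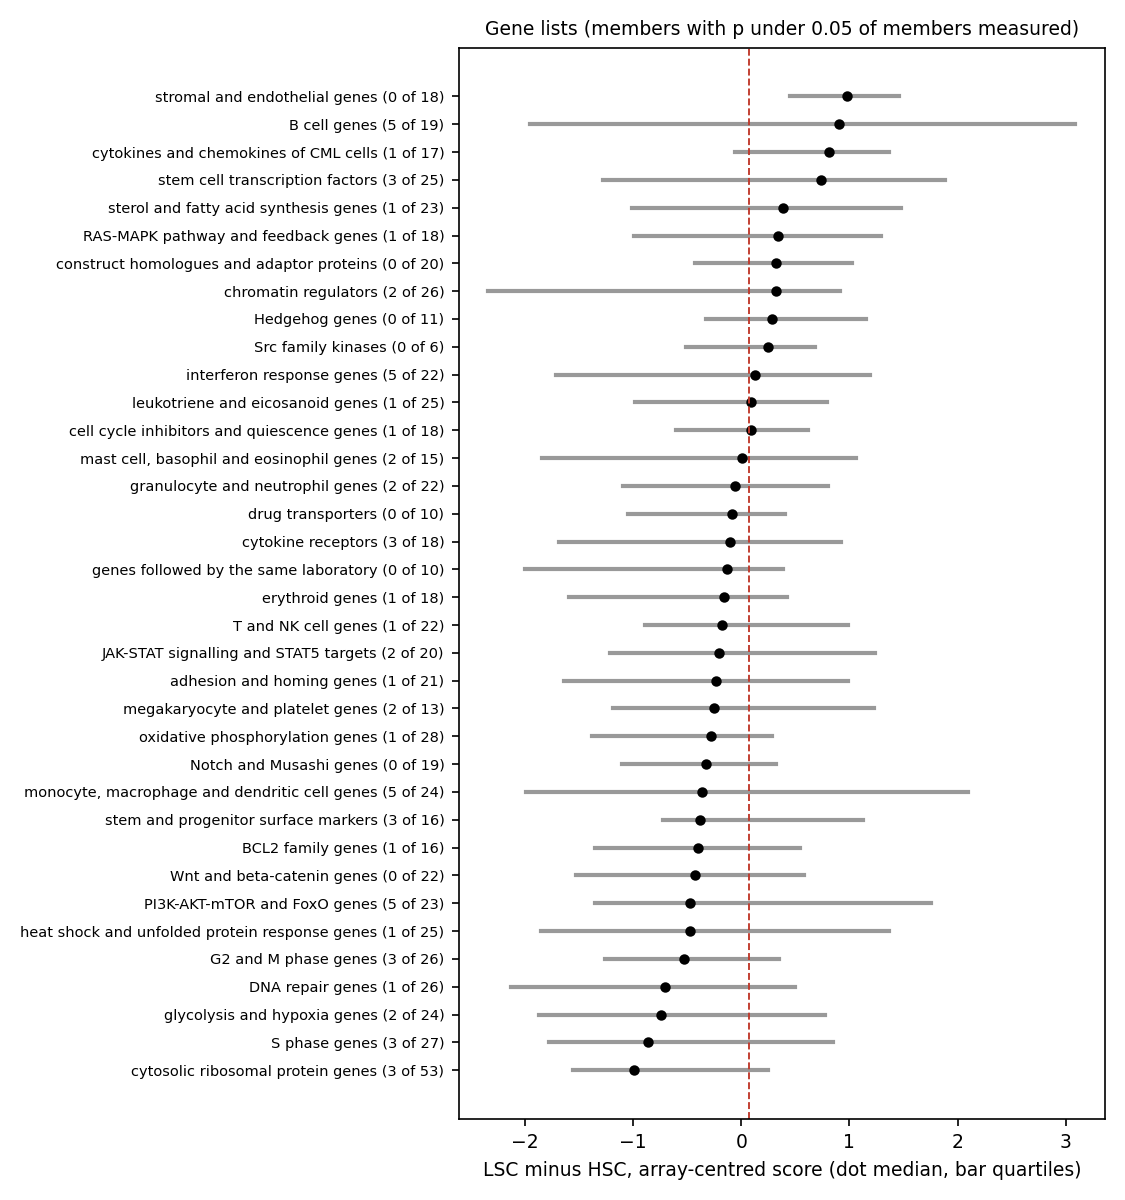
Median (dot) and quartiles (bar) of LSC minus HSC in array-centred score (horizontal axis) over the members of each of 36 gene lists (rows), with the median of all genes as a dashed line and, in each label, the members with unadjusted p under 0.05 of those measured. List medians ran from -0.99 for cytosolic ribosomal protein genes to 0.98 for stromal and endothelial genes, and 0 members passed after adjustment.

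The microRNA-17 to 92 cluster gives several readings of a single primary transcript, which BCR-ABL is known to influence in CML. Its hairpins were added after their values were seen. The mature sequences of the 5 hairpins with a probe set of their own, from RefSeq (GRCm38.p6, chr14:115043684-115044380, plus strand from the first to the last arm shown), are given with the seed, bases 2 to 8, in capitals. They are shown because the first pair and the last pair each share a seed.
mmu-miR-17-5p: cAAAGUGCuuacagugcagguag
mmu-miR-20a-5p: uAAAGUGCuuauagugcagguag
mmu-miR-18a-5p: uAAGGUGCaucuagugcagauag
mmu-miR-19a-3p: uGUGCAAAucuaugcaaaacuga
mmu-miR-19b-3p: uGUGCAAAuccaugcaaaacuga
The array reads the hairpin or its precursor and not the mature strand. Mir17 differed by 0.12 (95% interval -3.45 to 3.69) and Mir20a, of the same seed, by 1.5 (-1.30 to 4.29). Mir18 differed by 0.54 and Mir19a by -0.86. Mir19b-1, which shares its seed with Mir19a, stood at -8.13 and -9.58 in HSC and 3.01 and -6.37 in LSC. Its difference of 7.17 (0.88 to 13.47; limma adjusted p = 0.953) was 11.86 without LSC replicate 2 and 2.48 without LSC replicate 1. The hairpins of the cluster did not differ in common, and 4 of the 5 intervals held 0.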

How the data were processed

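RNA of sorted mouse cells was read on 6 Affymetrix arrays after whole-transcript labelling. Per the submitters' processing notes, the authors used Affymetrix Expression Console 1.1 and RMA. Each deposited value is a score, and its unit, log base and direction are not given in the sources used here. The table lists 35557 probe sets, and 1058 of them hold no value. The platform annotation gave 1 symbol to 21789 probe sets, several to 1621 and none to 12147, and those with several or none were not used for genes.

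Each array was centred on its median over the 21601 tested probe sets. limma 3.58.1 in R 4.3.3 fitted group means over all 6 arrays (3 residual degrees of freedom), with empirical Bayes variances that followed the mean score. All tests are two-sided with Benjamini-Hochberg adjustment over every tested probe set. The number of arrays limits the precision. Named probe sets were a fixed set of genes, the 12 of smallest p and the 3 of widest rank move in each direction (unnamed gene models left out), and list members with p under 0.05 or, where there were none, of smallest p. The lists and genes were chosen with earlier results of these data known. Alternatives changed scaling, arrays, filter, probe set, variance trend, replicate block and covariate.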

Additional observations from a re-analysis of the deposited data

How the results depend on the processing

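No probe set passed the adjusted threshold under any of the 16 alternatives, where the smallest adjusted p was 0.263. The count at an unadjusted p under 0.05 ran from 834 to 1627, the latter without HSC replicate 1. The higher count was 215 without centring (474 with it), and the lower count 1008 without HSC replicate 1 (635 with it). Replicate numbers were not shown to pair the arrays: replicate 1 minus 2 correlated between groups at 0.00323, -0.0588 and -0.0548. With the replicate block 1068 probe sets had p under 0.05 and 0 passed. Of 108 named probe sets, 95 kept their sign under every alternative that included them. Many of them were chosen by small p, and where groups do not overlap, leaving out 1 array cannot change the sign. Alternatives that change only the spread also leave the difference as it was, so this count does not measure stability. Without centring Blk was -0.52, Hif1a -0.13 and Mir17 -0.42, and Blk was -0.06 after scaling by the median absolute deviation and -0.83 with the description number as a covariate. With the probe set of lowest mean, Gpatch8 was 2.49, Rpl21 -2.22, Rps13 -0.83 and Rps25 0.31. The alternative with the probe set of highest mean left out named probe sets that were not the highest of their gene. The probe set of highest mean differed by -1.65 for Khdrbs1, -1.33 for Txlng and 1.16 for Slc44a1. Each has the opposite sign to the named probe set (5.39, 12.84 and -9.76). Leaving out 1 array at a time, Abl1 ran from -0.04 to 1.68, Alox5 from -5.19 to 1.18, Blk from -0.87 to 0.91, Hif1a from -0.01 to 0.84, Kit from -2.34 to 1.06, Scd1 from -2.46 to 1.91, Mir17 from -1.38 to 1.62, Mir18 from -2.61 to 3.69 and Mir19a from -1.91 to 0.19. The cause of these sign changes was not tested. Widely expressed genes had a median percentile of 14.4 in place of 9.69 with the probe set of highest mean per gene, which is by construction the higher one. Of 37 list medians, 12 moved by more than 1 SD under a scaling alternative.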
